A study of Mus musculus with 6 samples.

Results

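Prg2, Prg3, Epx, Ear1, Ear2, Ear6 and Ear10 encode the granule proteins by which eosinophils are usually recognised. Their transcripts were followed here in cultures of mouse basophils. The 7 genes were picked by symbol, because Prg2 was higher and Ear1 and Ear2 were lower after IL-3 stimulation in the same libraries. All 7 were among the 37043 gene symbols of the count table. Bulk RNA-seq had been performed on bone marrow-derived basophils (BMBAs) of wild-type C57BL/6J mice, grown from bone marrow cells for 7 days at 0.3 ng/mL of a cytokine that the methods of the study name as IL-3, and enriched with beads against CD49b. The cells were then exposed for 6 h to 10 ng/mL IL-3 or to PBS as a control. Each group comprised 3 cultures of a single experiment, so the spread between replicates is that between such cultures. The sources do not state whether PBS-treated cells still had culture IL-3 around them in these 6 h, so each difference is between cells with and without the added 10 ng/mL. Both groups had been grown in the cytokine beforehand, and bead enrichment may leave other cells of such a culture behind. Because the contrast of IL-3 with PBS chose the genes, their values are given as a description and without a test.

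Eosinophil granules hold a crystalline core of major basic protein, encoded by Prg2, surrounded by a matrix of eosinophil peroxidase and of ribonucleases. Prg3 encodes a homologue of major basic protein. Epx encodes eosinophil peroxidase, a heme enzyme that turns hydrogen peroxide and halides into toxic oxidants. The Ear genes encode eosinophil-associated ribonucleases of the RNase A family, the mouse relatives of human eosinophil-derived neurotoxin and eosinophil cationic protein, and the family has expanded in rodents into a cluster of near copies and pseudogenes. These proteins are known for their toxicity to helminths and to host tissue, and several Ear genes are also transcribed by monocytes and macrophages.

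The Ear genes are so alike that their sequences bear directly on what a read count can mean, so a pair of coding stretches is shown first. Ear1, Ear10 and Ear2 lie in one cluster on chromosome 14, while Ear6 lies 7750 kb beyond Ear2 on the same chromosome. Each is coded by a single exon, the second of its transcript. Coding sequences were 97.0% identical between Ear2 and Ear10, 95.7% between Ear1 and Ear2, and 95.1% between Ear1 and Ear10, whereas Ear6 was between 87.4% and 88.2% identical to the other three. The following 60 bases, coding positions 171 to 230 in exon 2 (GRCm38, from GENCODE transcripts), were the most alike in Ear1, Ear2 and Ear10. They held 0 differing positions among these genes. A read that lies wholly within this stretch cannot be assigned to any one of them, while a longer read may reach differing positions. The 60 bases lie at chr14:43819180-43819239 (minus strand) in Ear1, chr14:44103057-44103116 (plus strand) in Ear2, chr14:43923139-43923198 (minus strand) in Ear10 and chr14:51854168-51854227 (plus strand) in Ear6.
Ear1: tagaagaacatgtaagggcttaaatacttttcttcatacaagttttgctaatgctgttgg
Ear2: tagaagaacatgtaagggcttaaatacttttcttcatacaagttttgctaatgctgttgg
Ear10: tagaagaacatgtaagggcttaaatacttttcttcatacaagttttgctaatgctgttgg
Ear6: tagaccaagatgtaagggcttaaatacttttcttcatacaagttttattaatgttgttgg

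The stretch that separated Ear1, Ear2 and Ear10 best, coding positions 246 to 305 of the same exon, held 6 differing positions in 60 bases. Capitals mark the positions at which these 3 genes are not all the same. It lies at chr14:43819105-43819164 (minus strand) in Ear1, chr14:44103132-44103191 (plus strand) in Ear2, chr14:43923064-43923123 (minus strand) in Ear10 and chr14:51854243-51854302 (plus strand) in Ear6.
Ear1: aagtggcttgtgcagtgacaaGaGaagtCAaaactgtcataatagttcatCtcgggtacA
Ear2: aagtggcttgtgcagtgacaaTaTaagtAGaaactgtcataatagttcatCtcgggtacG
Ear10: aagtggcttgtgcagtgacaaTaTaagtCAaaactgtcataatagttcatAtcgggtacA
Ear6: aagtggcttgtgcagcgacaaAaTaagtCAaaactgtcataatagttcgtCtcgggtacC

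Prg2 and Prg3 raise no such difficulty. They are neighbours on chromosome 2, separated by 4582 bases, and their coding sequences were 62.9% identical. Even the most alike 60 bases within one exon, coding positions 371 to 430 in exon 4, differed at 14 positions, marked by capitals. The stretch lies at chr2:84982590-84982649 in Prg2 and at chr2:84991403-84991462 in Prg3, both on the plus strand.
Prg2: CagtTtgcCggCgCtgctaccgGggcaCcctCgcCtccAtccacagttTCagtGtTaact
Prg3: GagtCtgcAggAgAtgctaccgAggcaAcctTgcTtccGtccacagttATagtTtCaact

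The libraries held between 10537540 and 13999287 counts. A library with 0 counts of a gene may still have had up to 3 counts, that is 0.233 to 0.296 CPM (the count divided by the TMM-scaled library size, times 1000000), and this limit covers counting error only. The basophil proteases were abundant in both groups, with Prss34 at 5615 ± 323 CPM (PBS) and 5661 ± 183 CPM (IL-3) and Mcpt8 at 3066 ± 171 CPM (PBS) and 5895 ± 178 CPM (IL-3) (SD, n = 3 each). The monocyte and macrophage marker Lyz2 was abundant as well, at 10456 ± 432 CPM (PBS) and 5348 ± 316 CPM (IL-3). Bulk counts do not show which cells of the culture a transcript came from. Of the 16675 genes tested with edgeR's quasi-likelihood test, 38.2% were called at an adjusted p below 0.05, 18.0% higher and 20.2% lower in IL-3, around a median log2 fold change of -0.0033. This came to 3003 genes higher and 3372 lower, and to 1698 higher and 5030 lower when library totals were used in place of TMM, which shifted the median to -0.17. Groups did not overlap in 48.2% of the genes tested, with the IL-3 libraries above in 23.8% and below in 24.4%. Of the 7 granule protein genes, 4 had enough counts to be tested, namely Prg2, Ear1, Ear2 and Ear10, while Prg3, Epx and Ear6 stayed under the filter on low counts. The libraries of the groups did not overlap in 5 of the 7 genes, among them the 4 with enough counts, against 48.2% of all genes tested, and nothing is read from that count because this contrast chose the genes.

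**Figure D1:**
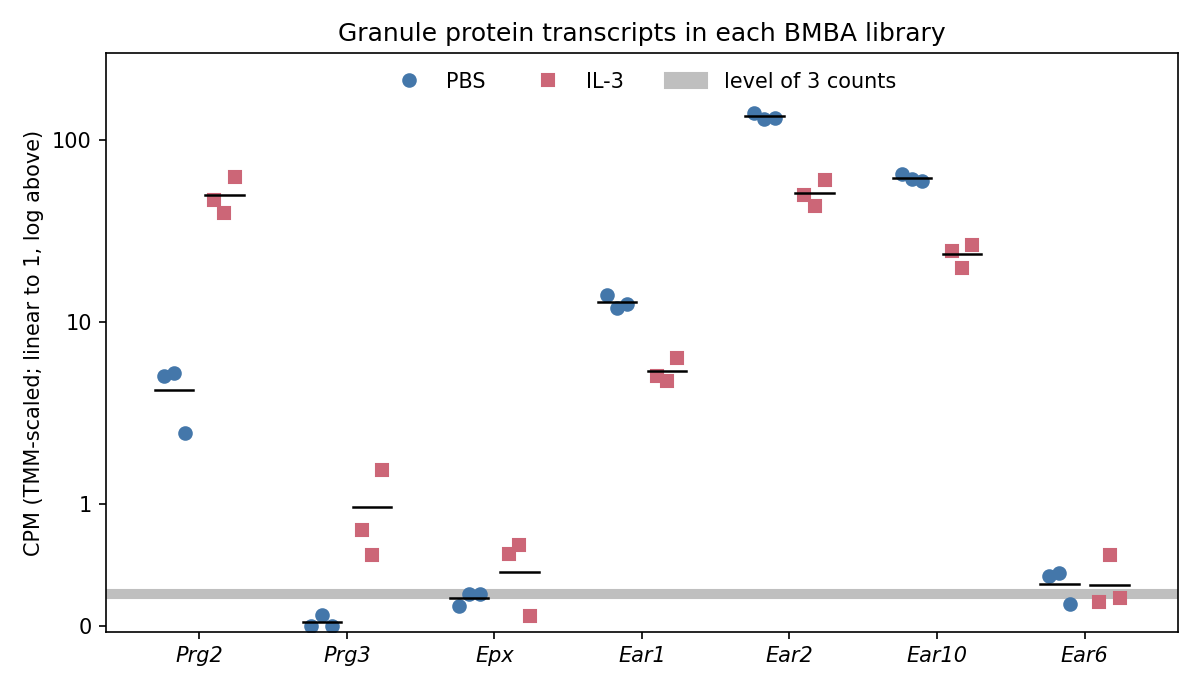
CPM of the 7 granule protein genes in each library, on an axis that is linear up to 1 CPM and logarithmic above. Points are PBS libraries, squares IL-3 libraries, black bars group means and the grey band the level that 3 counts give. Prg2 went from 4.27 to 49.8 CPM on average and Ear2 from 134 to 51.3 CPM, whereas Epx and Ear6 lay around the grey band in both groups.

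Major basic protein showed the largest difference of the granule genes with enough counts. Prg2 (ENSMUSG00000027073, chromosome 2, 84980461 to 84983632, plus strand, GRCm38) had 62, 60 and 28 counts in PBS replicates 1, 2 and 3, and 473, 476 and 812 counts in IL-3 replicates 1, 2 and 3. In CPM these were 5.07, 5.26 and 2.47 in PBS and 46.7, 39.6 and 63.0 in IL-3, so every IL-3 library lay far above every PBS library. PBS replicate 3 was the lowest of its group, and IL-3 replicate 3 the highest of its own. The group means were 4.27 ± 1.56 CPM for PBS and 49.8 ± 12.0 CPM for IL-3 (SD, n = 3 each), with a coefficient of variation of 36.6% and 24.0%. The log2 fold change was 3.54 (SE 0.212), which is 11.6-fold, and 40 of the genes tested had a larger one. In bulk RNA, more or fewer cells of a type and more or less RNA per cell cannot be told apart. Of the 50-mers in its annotated transcript, 0 were found in other genes, so its counts are not subject to the sharing described for the Ear genes.

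The neighbouring Prg3 (ENSMUSG00000027072, chromosome 2, 84988215 to 84993886, plus strand) was barely detected in PBS, with 0, 1 and 0 counts, and had 8, 7 and 20 counts in IL-3. All 3 IL-3 libraries lay above the PBS libraries, and IL-3 replicate 3 was again the highest. Summed over the libraries, 35 counts stood against 1, a ratio of 35.0 after scaling for depth, with a 95% counting interval (Clopper-Pearson) from 5.87 to 1419. On the log2 scale this ratio was 5.13, and 4.51 without PBS replicate 1, while without PBS replicate 2 no PBS count remained. The lower end of the counting interval of Prg3 is below the ratio of Prg2, which was 11.7 by the same measure with an interval from 9.92 to 13.9, and the counts of Prg3 do not show which of both changed more. It too shared 0 of its 50-mers with other genes. At 1.03 ± 0.537 CPM per kilobase of transcript in IL-3, Prg3 stayed well below Prg2, which had 59.4 ± 14.3 CPM per kilobase there.

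Epx, the peroxidase, was close to the limit of detection in both groups. Epx (ENSMUSG00000052234, chromosome 11, 87864000 to 87875536, minus strand) had 2, 3 and 3 counts in PBS and 6, 8 and 1 counts in IL-3. The groups overlapped, as IL-3 replicate 3, the library with most Prg2 counts, had the fewest of Epx. The ratio of summed counts was 1.87 with a counting interval from 0.745 to 5.10, so a difference was not detectable at this depth. The transcript of Epx is 2689 bases long against 838 bases for Prg2, and per kilobase its level was 0.0856 ± 0.0215 CPM in the PBS group, against 0.166 ± 0.119 CPM after IL-3.

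The ribonuclease genes Ear1, Ear2 and Ear10 went the other way. Ear2 (ENSMUSG00000072596, chromosome 14, 44102654 to 44103534, plus strand) had 141, 130 and 132 CPM in PBS, and per kilobase of transcript was the most abundant of the 7 genes there. It was measured at 50.1, 43.6 and 60.3 CPM in IL-3. The IL-3 libraries lay well below the PBS libraries, and IL-3 replicate 3 was the least reduced. The group means of Ear2 were 134 ± 5.75 CPM and 51.3 ± 8.39 CPM (SD, n = 3 each), with a log2 fold change of -1.39 (SE 0.0905). Of the genes tested, 332 had a lower log2 fold change than Ear2.

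Ear10 (ENSMUSG00000090166, chromosome 14, 43922720 to 43923559, minus strand) had 64.8, 61.0 and 59.7 CPM in PBS and 24.7, 19.8 and 26.4 CPM in IL-3. Its log2 fold change of -1.39 (SE 0.0982) was that of Ear2 to 2 decimals, and the IL-3 libraries stood in the same order in both genes. Ear1 (ENSMUSG00000072601, chromosome 14, 43818765 to 43875517, minus strand) was the least abundant of these 3 genes per kilobase, with 14.2, 11.9 and 12.6 CPM in PBS and 5.04, 4.75 and 6.36 CPM in IL-3. Its log2 fold change was -1.25 (SE 0.160). The differences between the log2 fold changes of Ear1, Ear2 and Ear10 were smaller than the SE of Ear1. As reads may be split among these near copies, the 3 values are not independent. In all 3 genes IL-3 replicate 2 was the lowest library and no IL-3 library reached a PBS library.

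Ear6 (ENSMUSG00000062148, chromosome 14, 51853699 to 51854643, plus strand), the most distant copy, was near the limit of detection, with 5, 5 and 2 counts in PBS and 2, 7 and 3 counts in IL-3. The sums were 12 and 12 counts, a ratio of 0.999 with a counting interval from 0.410 to 2.43. A difference in Ear6 was not detectable at this depth, and without IL-3 replicate 2 the log2 ratio was -0.66. The ratio of Ear2 was 0.383 by the same measure, with an interval from 0.363 to 0.405, which ends just below that of Ear6. Both intervals cover counting error only and leave out the spread between cultures.

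Per kilobase of transcript the genes could be ordered within each group. In PBS, Ear2 stood at 187 ± 7.99, Ear10 at 91.2 ± 3.88, Ear1 at 18.1 ± 1.60, Prg2 at 5.09 ± 1.86 and Ear6 at 0.479 ± 0.201 CPM per kilobase (SD, n = 3 each), followed by Epx at 0.0856 ± 0.0215 and by Prg3 at 0.0308 ± 0.0533, which differed by about the spread between replicates. In IL-3, Ear2 at 71.4 ± 11.7 and Prg2 at 59.4 ± 14.3 CPM per kilobase were the highest and differed by less than the spread between replicates, followed by Ear10 at 34.9 ± 5.06 and Ear1 at 7.55 ± 1.21. Prg3 and Ear6, the latter at 0.474 ± 0.299, differed by about the spread between replicates there, as did Ear6 and Epx. Prg2 thus moved from below Ear1 to beside Ear2. The places of Ear1, Ear2 and Ear10 depend on how reads were split among these near copies, which is uncertain. Expressed against the counts of the 4 Ear genes together, the counts of Prg2 came to 2.30%, 2.58% and 1.21% in the PBS libraries and to 58.4%, 57.6% and 67.5% in the IL-3 libraries.

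Because the Ear transcripts share sequence, the split of reads among them is uncertain. Of the 50-mers in transcripts of Ear1, 57.4% occurred in another gene, and the share was 41.5% for Ear2, 39.9% for Ear10 and 0.954% for Ear6. Ear1 shared most with the pseudogene Ear-ps9 (41.4% of its 50-mers), whose locus overlaps that of Ear1, while Ear2 shared most with Ear10 (26.0%) and Ear10 most with Ear2 (27.7%). The counts were divided in nearly the same proportions in every library, which does not show that shared reads were assigned to the right gene. Ear2 took between 62.6% and 64.6% of the counts of the 4 Ear genes, Ear10 between 28.3% and 30.9%, Ear1 between 5.85% and 6.90% and Ear6 between 0.0861% and 0.847%, and the exact 95% binomial intervals of the shares of Ear2, Ear10 and Ear1 overlapped between the lowest and the highest library. For Ear6, with 2 counts in the lowest and 7 in the highest library, they did not.

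**Figure D2:**
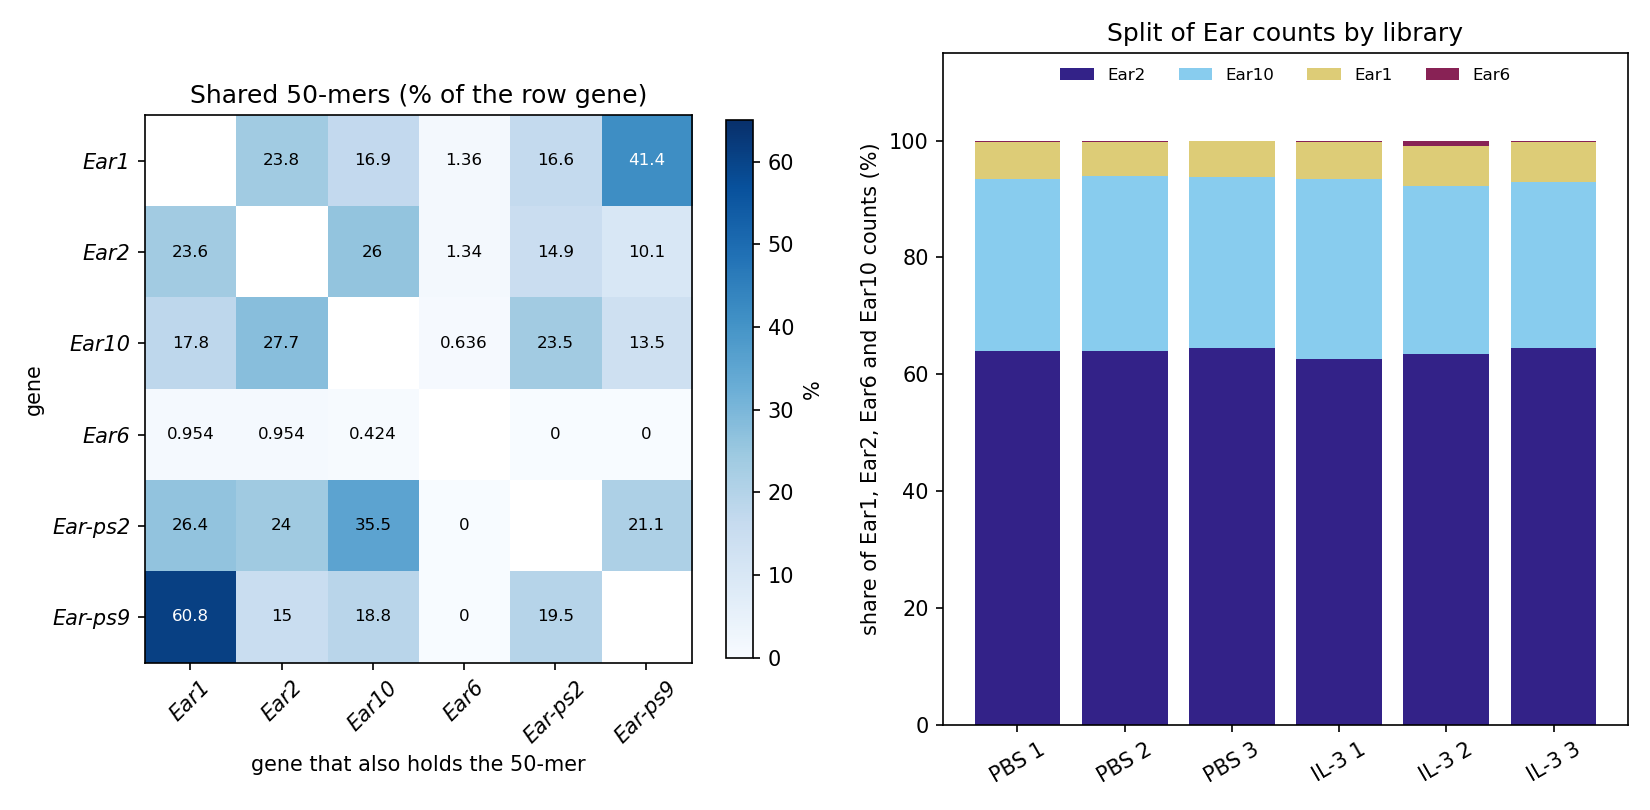
Left, percentage of the 50-mers of each Ear gene (rows) that also occur in transcripts of another Ear gene (columns), with the highest value at 60.8% of Ear-ps9 in Ear1. Right, share of each gene among the counts of Ear1, Ear2, Ear10 and Ear6 in each library, where Ear2 holds 62.6% to 64.6% in all 6 libraries.

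The sum of the 4 Ear genes does not depend on how reads were split among these. It was 220, 204 and 205 CPM in PBS and 80.0, 68.8 and 93.3 CPM in IL-3, with means of 210 ± 9.39 and 80.7 ± 12.3 CPM (SD, n = 3 each) and a log2 fold change of -1.38. With the counts of the pseudogenes Ear-ps2 and Ear-ps9 added to the sum, the log2 fold change was -1.39. Ear-ps2, a pseudogene of the cluster that shared 35.5% of its 50-mers with Ear10, went from 8.05 ± 0.655 to 2.22 ± 0.328 CPM (log2 fold change -1.86, edgeR adjusted p 2.08e-06). Ear-ps9, chosen after its values were seen, went from 3.68 ± 0.311 to 1.27 ± 0.169 CPM (log2 fold change -1.52, edgeR adjusted p 0.000246). As 60.8% of its 50-mers also belong to Ear1, much of what was counted for either gene cannot be told apart.

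The sequence before the start of each gene was examined as a feature that the choice of genes had not used. RefSeq promoters (GRCm38.p6) were found for 6 of the 7 genes, all but Prg2. The start is that of RefSeq, which is also the GENCODE start given above for Prg3, Epx and Ear2, but lies within the GENCODE span of Ear1 and of Ear6 and just outside that of Ear10. The 250 bases before it were 99.2% identical between Ear1 and Ear2 over 248 aligned bases, 94.3% between Ear2 and Ear10 and 93.0% between Ear2 and Ear6. The likeness before the start therefore extends to Ear6, whose counts were near the limit of detection. The promoters of Ear2 and Ear10 are shown because these genes had the highest Ear counts and nearly the same profile over the libraries. Capitals mark matches to TTNNGNAA, the core letters of C/EBP sites, on either strand. The search covered the 250 bases shown. Ear2 is read from chr14:44102404-44102653 on the plus strand and Ear10 from chr14:43923597-43923846 on the minus strand.
Ear2: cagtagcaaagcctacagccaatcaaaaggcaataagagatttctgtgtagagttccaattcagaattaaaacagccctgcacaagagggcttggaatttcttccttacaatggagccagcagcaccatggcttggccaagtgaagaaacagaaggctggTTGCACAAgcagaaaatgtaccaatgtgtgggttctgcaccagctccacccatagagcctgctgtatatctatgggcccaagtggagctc
Ear10: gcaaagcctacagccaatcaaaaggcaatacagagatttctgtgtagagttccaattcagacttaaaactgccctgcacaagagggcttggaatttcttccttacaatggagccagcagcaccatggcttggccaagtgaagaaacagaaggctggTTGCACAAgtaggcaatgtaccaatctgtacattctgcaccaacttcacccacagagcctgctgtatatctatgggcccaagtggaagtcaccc

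Each of the promoters of Ear1, Ear2, Ear6, Ear10 and Prg3 held 1 match to TTNNGNAA and that of Epx held 0, while 36.8% of all 32851 promoters of the same length held at least 1. The match began 92 bases before the start in Ear1, 90 in Ear2, 94 in Ear10, 112 in Ear6 and 65 in Prg3. The Ear promoters are near copies, 92.2% to 99.2% identical, so their matches are not independent. Nothing is read from the number of promoters with a match. TTCNNNGAA, the letters of a STAT site, and AGATAA, a form of the GATA site, were searched on both strands as well and occurred in 0 of the 6 promoters, against 7.02% and 9.99% of all promoters. A match is a string of letters and not a shown site, and a missing match says nothing about more distant sequence.

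Other genes of the RNase A family included some called in each direction. Of 29 further genes of the RNase A family that were listed, 12 were in the table and 5 could be tested, of which 2 were called higher and 1, Ear-ps2, lower, against 38.2% of all genes tested that were called in either direction. The median of these genes was 0.58 on the log2 scale, against -0.0033 over all genes tested. Rnase6, a ribonuclease of phagocytes with antimicrobial activity, rose from 16.0 ± 1.10 to 39.8 ± 3.36 CPM (log2 fold change 1.32, edgeR adjusted p 3.67e-08). Rnase4, a secreted ribonuclease, rose from 10.4 ± 1.68 to 24.4 ± 0.859 CPM (log2 fold change 1.22, edgeR adjusted p 1.62e-06). In both genes all IL-3 libraries lay above all PBS libraries. Rnase12, chosen after its values were seen, had a log2 fold change of -0.51 and was not called (edgeR adjusted p 0.0931). Without PBS replicate 1 it was at -0.75 (edgeR adjusted p 0.00797) and without IL-3 replicate 3 at -0.73 (edgeR adjusted p 0.0321), and it was also called with the block, without the filter and with library totals.

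Rnase2b, a further relative chosen after its values were seen, had 5, 6 and 4 counts in PBS and 0 in every IL-3 library. With 15 counts in all it was too rare to be tested, and no fold is given. Rnase9 and Rnase13 were at 0 in all libraries.

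**Figure D3:**
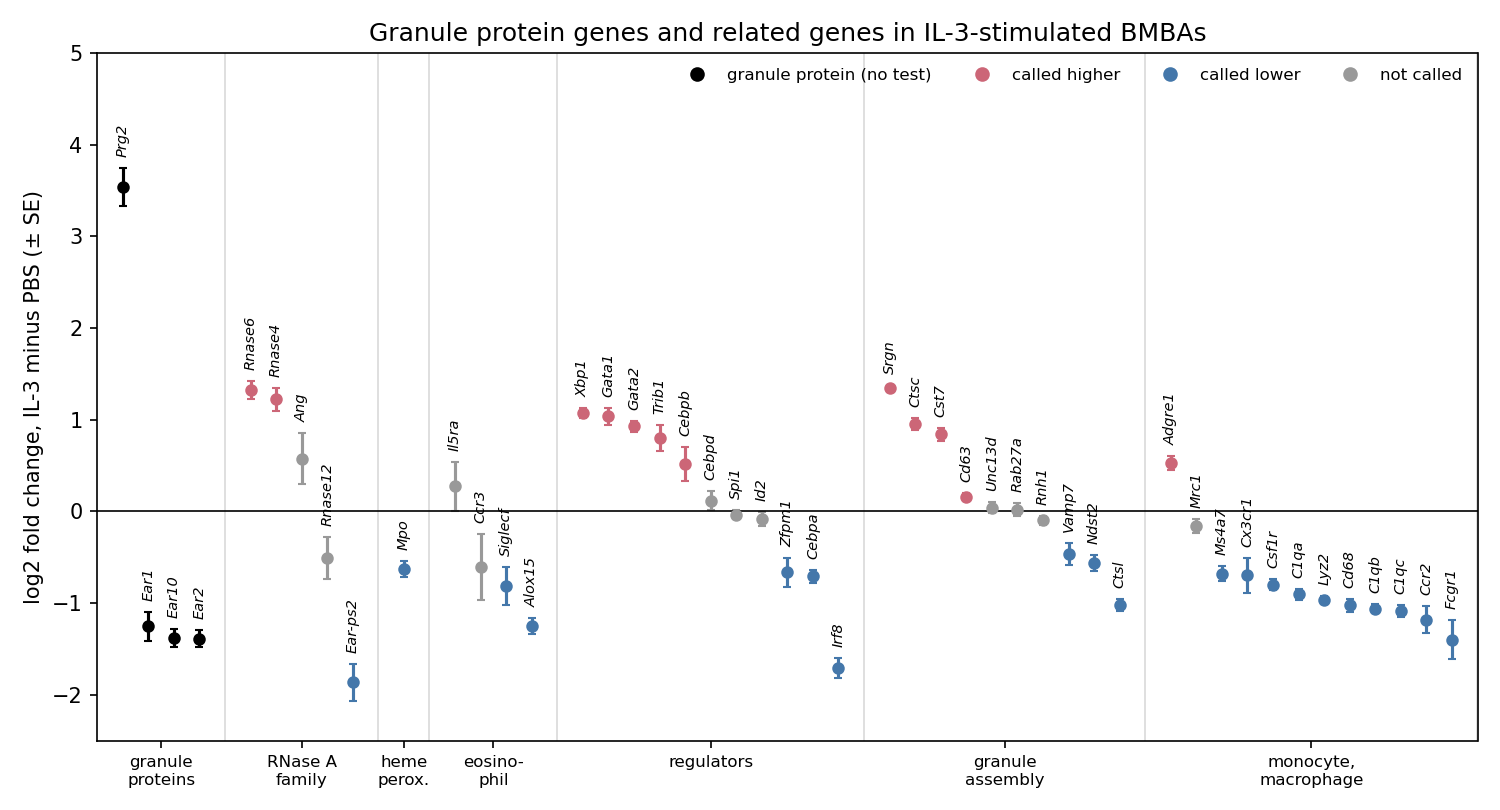
Log2 fold change of IL-3 against PBS with its SE for the granule protein genes that had enough counts (black, no test) and for tested genes of the RNase A family, heme peroxidase, eosinophil, regulator, granule assembly and monocyte or macrophage lists, coloured by their call at an edgeR adjusted p below 0.05. Prg2 at 3.54 stands above all other genes shown, and Ear1, Ear2 and Ear10 lie between -1.39 and -1.25, beyond all monocyte and macrophage markers but Fcgr1 at -1.40.

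Myeloperoxidase, the nearest relative of Epx and an enzyme of neutrophil and monocyte precursors, was measured as well. Mpo fell from 42.9 ± 2.67 to 27.7 ± 1.66 CPM (log2 fold change -0.63, edgeR adjusted p 2.91e-05), with no overlap between the groups. It was the only one of the 4 listed heme peroxidases that could be tested.

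Eosinophil genes that encode no granule protein were low, apart from Alox15. Of 4 such genes, 2 were called lower and 0 higher, against 20.2% and 18.0% of all genes tested, around a median of -0.71 on the log2 scale. With so few genes nothing is read from that count. Their summed level was 63.6 to 70.9 CPM in PBS libraries and 30.9 to 31.8 CPM in IL-3 libraries. Alox15, a lipoxygenase of eosinophils and macrophages, fell from 54.0 ± 3.11 to 22.6 ± 1.43 CPM (log2 fold change -1.25, edgeR adjusted p 1.00e-08). Siglecf, the sialic acid receptor by which mouse eosinophils and alveolar macrophages are sorted, fell from 7.34 ± 1.31 to 4.13 ± 0.844 CPM (log2 fold change -0.82, edgeR adjusted p 0.00498). Il5ra and Ccr3 were chosen after their values were seen. Il5ra, the receptor subunit for the eosinophil cytokine IL-5, was at 2.40 ± 0.359 and 2.92 ± 0.721 CPM and was not called (edgeR adjusted p 0.471). Ccr3, the eotaxin receptor, which basophils also carry, was at 2.55 ± 1.22 and 1.66 ± 0.278 CPM (log2 fold change -0.61, edgeR adjusted p 0.203), and without PBS replicate 3 its log2 fold change was -0.95 with an adjusted p of 0.0203.

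Regulators of eosinophil granule genes, transcription factors apart from the pseudokinase Trib1, included genes called in each direction. Of 12 listed, 11 could be tested, and 5, Trib1 among them, were called higher and 3 lower, against 18.0% and 20.2% of all genes tested, around a median of 0.12 on the log2 scale. With library totals in place of TMM, 4 were called higher and 5 lower. One of the 5, Cebpb, had an edgeR adjusted p of 0.0411 and was not called in 8 of 12 alternatives, among them those without PBS replicate 1, PBS replicate 3, IL-3 replicate 2 or IL-3 replicate 3 (edgeR adjusted p between 0.101 and 0.145). Xbp1, a factor of the secretory pathway that developing eosinophils require, rose from 233 ± 8.41 to 490 ± 21.1 CPM (log2 fold change 1.07, edgeR adjusted p 1.71e-10). Gata2, a GATA factor of basophils, mast cells and eosinophils, rose from 799 ± 67.4 to 1518 ± 66.2 CPM (log2 fold change 0.93, edgeR adjusted p 2.73e-09). Gata1, which drives eosinophil development and was chosen after its values were seen, rose by 1.04 on the log2 scale. Irf8, a factor of monocyte and early granulocyte development, fell from 35.0 ± 1.82 to 10.7 ± 0.773 CPM (log2 fold change -1.71, edgeR adjusted p 3.14e-09). Cebpa, also chosen after its values were seen, fell by 0.71 on the log2 scale. Cebpe, the C/EBP factor of late granule genes, was near the limit of detection with means of 0.197 and 0.366 CPM and was not tested.

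Genes by which granule proteins are packed and handled likewise included genes called in each direction. Of 10 listed, 4 were called higher and 3 lower, against 18.0% and 20.2% of all genes tested, around a median of 0.030 on the log2 scale. Srgn, the core protein of the proteoglycan that holds basic proteins in granules, rose from 1577 ± 23.6 to 3997 ± 108 CPM (log2 fold change 1.34, edgeR adjusted p 2.24e-13). Ctsc, a lysosomal dipeptidyl peptidase, rose from 82.5 ± 6.11 to 160 ± 5.28 CPM (log2 fold change 0.95, edgeR adjusted p 7.56e-09). Ctsl, a lysosomal cysteine protease, fell from 2083 ± 134 to 1024 ± 105 CPM (log2 fold change -1.03, edgeR adjusted p 4.06e-09). Cst7, an inhibitor of such proteases with a part in eosinophil granules, was chosen after its values were seen and rose by 0.84 on the log2 scale. Rnh1, the cytosolic inhibitor that binds RNase A family members, was at 216 ± 3.24 and 202 ± 6.05 CPM and was not called (log2 fold change -0.098, edgeR adjusted p 0.161), although all IL-3 libraries lay below all PBS libraries. With library totals in place of TMM it was at -0.26 and called (edgeR adjusted p 0.00152), and 3 genes of the list were then called higher and 4 lower.

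Most markers of monocytes and macrophages moved in the direction of Ear1, Ear2 and Ear10. Of 12 markers, all tested, 10 were called lower and 1 higher, against 20.2% and 18.0% of all genes tested, around a median of -0.94 on the log2 scale, and none was at 0. Their summed level was 11832 to 12764 CPM in PBS libraries and 6187 to 6815 CPM in IL-3 libraries, mostly from Lyz2, which encodes lysozyme and fell by 0.97 on the log2 scale (edgeR adjusted p 6.02e-11). C1qb and C1qc, complement genes of macrophages, fell by 1.06 and 1.09 on the same scale. Adgre1, chosen after its values were seen, rose by 0.53, and Mrc1, chosen in the same way, was at -0.16 and was not called (edgeR adjusted p 0.117). Mrc1 was called lower without IL-3 replicate 1 (-0.24, edgeR adjusted p 0.0399) and with library totals (-0.32, edgeR adjusted p 0.00583). The counts of the 4 Ear genes amounted to 2.05%, 1.91% and 2.05% of those of Lyz2 in PBS and to 1.40%, 1.33% and 1.80% in IL-3, with IL-3 replicate 3 close to PBS replicate 2. Other markers of the list changed more than Lyz2, such as Ccr2 at -1.18 and Fcgr1 at -1.40 on the log2 scale, both chosen after their values were seen, against -1.38 for the Ear sum. The part of these cells in the lower Ear counts was not tested.

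**Figure D4:**
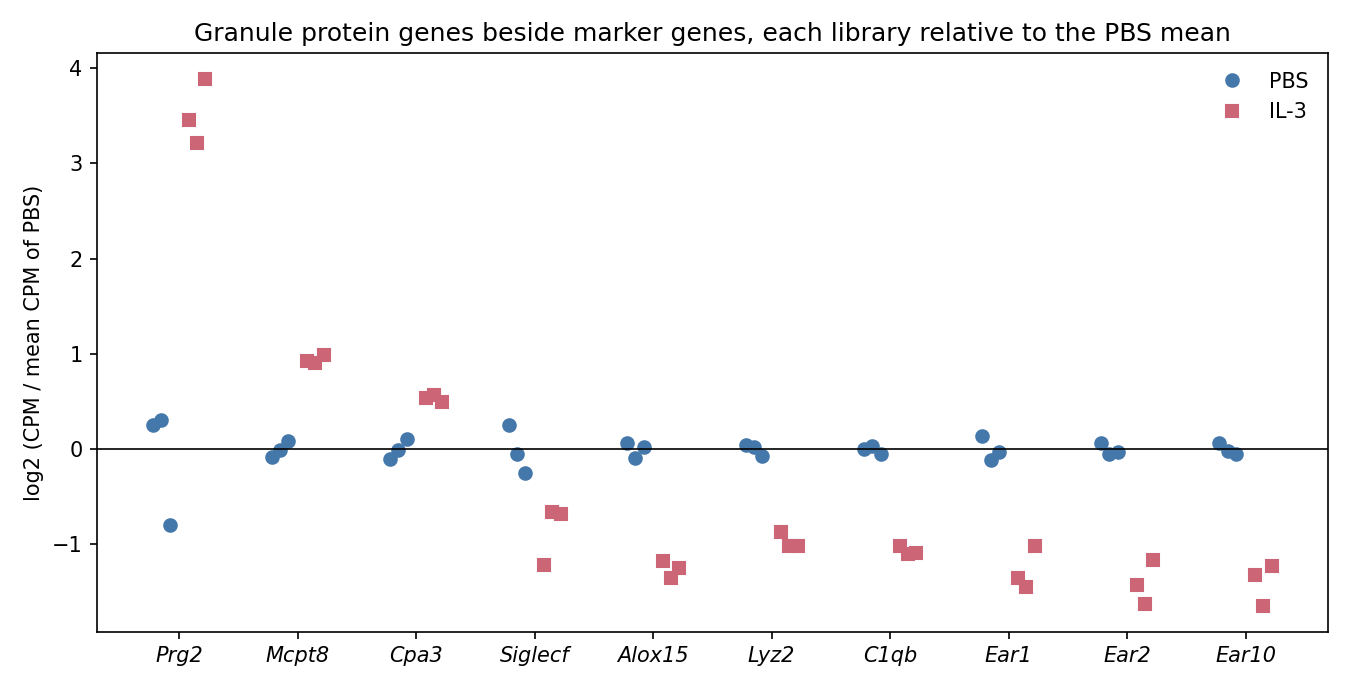
Each library's CPM relative to the mean of the PBS libraries, on a log2 scale, for Prg2, Ear1, Ear2 and Ear10 beside single markers of basophils (Mcpt8), mast cells (Cpa3), eosinophils (Siglecf, Alox15) and monocytes or macrophages (Lyz2, C1qb). The IL-3 libraries of Prg2 lie above those of Mcpt8 and Cpa3. Those of the Ear genes lie below 0, as do those of Siglecf, Alox15, Lyz2 and C1qb. Some other markers of the same lists, not shown, differed from these. The log2 fold change was -0.50 for Fcer1a and 0.012 for Prss34 (basophils), 0.53 for Adgre1 (macrophages) and 0.27 for Il5ra (eosinophils). Prss34 and Il5ra were not called.

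Most called markers of basophils, mast cells and neutrophils were higher in IL-3, against 18.0% higher and 20.2% lower of all genes tested. Of 6 basophil markers, 4 were called higher and 1 lower (summed level 9162 to 10263 CPM in PBS libraries and 13144 to 13487 CPM in IL-3 libraries). On the log2 scale, Cd200r3 rose by 1.31, Mcpt8 rose by 0.94, Fcer1a fell by 0.50 and Prss34 was not called. Of 6 mast cell markers, 4 were called higher and 0 lower (840 to 945 CPM in PBS libraries and 1437 to 1571 CPM in IL-3 libraries), with log2 fold changes of Cma1 at 1.31, Tpsb2 at 1.04 and Cpa3 at 0.53. Of 11 neutrophil markers, 8 could be tested, and 4 were called higher and 1 lower (227 to 296 CPM in PBS libraries and 363 to 416 CPM in IL-3 libraries), with log2 fold changes of Retnlg at 2.61, Lcn2 at 0.47 and Ctsg at 0.28. Ly6g, also called higher, had 0, 4 and 2 counts in PBS and 23, 35 and 22 counts in IL-3, so its fitted log2 fold change of 3.66 rests on PBS counts near the limit of detection and was 3.07 without PBS replicate 1 and 4.59 without PBS replicate 2. Prtn3, a protease of granulocyte precursors chosen after its values were seen, fell by 1.79 on the log2 scale. More neutrophil markers could be tested when a library was left out. Without PBS replicate 1, 7 of 10 tested were called higher, and without PBS replicate 2, 7 of 11. Without PBS replicate 3, 5 of 10 were called higher, and without IL-3 replicate 2, 6 of 11. Without PBS replicate 2 or IL-3 replicate 2 (11 tested) or IL-3 replicate 3 (9 tested), 2 neutrophil markers were called lower. Without IL-3 replicate 3, 1 mast cell marker was called lower. The part of these cells in the higher Prg2 counts was not tested.

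The genes whose profile over the 6 libraries came nearest to that of Prg2 were Ikzf4, Hbegf and Adam19. Likeness was the root mean square distance between log2 CPM profiles, each centred on its own mean. Ikzf4, a transcription factor of the Ikaros family, lay at a distance of 0.321 and went from 4.82 ± 0.914 to 47.7 ± 4.31 CPM. Hbegf, a growth factor that binds the EGF receptor, lay at 0.334 and went from 2.05 ± 0.482 to 27.7 ± 4.74 CPM. Adam19, a membrane metalloprotease, lay at 0.369 and went from 3.09 ± 0.136 to 41.7 ± 4.28 CPM.

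The nearest profile to Ear2 was that of Ear10, at a distance of 0.0520, followed by Dnajc28 at 0.0579 and by Tlr13 at 0.0739. Tlr13, an endosomal receptor of myeloid cells for bacterial RNA, went from 39.8 ± 0.871 to 15.7 ± 1.81 CPM. Dnajc28, a gene of the J-domain family, went from 4.89 ± 0.0939 to 1.79 ± 0.378 CPM. Ear1 lay at 0.0931 from Ear2 and at 0.116 from Ear10, while Prg2 lay between 2.41 and 2.49 from these 3 genes. Since the distances are made from the same 6 libraries that chose the genes, they are a description only.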

How the data were processed

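RNA of 3 PBS-treated and 3 IL-3-stimulated BMBA cultures was sequenced. The authors trimmed reads with Cutadapt 3.4, mapped them with Bowtie2 to reference RNA and deposited raw read counts per gene symbol. The methods of the study name the build GRCm38 and the submitters' processing notes name GRCm39, and coordinates given here are those of GRCm38 (GENCODE M21 and RefSeq tables). No molecular identifiers and no step for reads of several origins are described in the sources used here. Reads copied by PCR may therefore have been counted separately, and the split between near copies is uncertain. Counting intervals treat each count as independent and would be too narrow if copies were counted. The labels name a column-based extraction and the methods a direct lysis.

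Genes were kept by filterByExpr (minimum count 10), scaled by TMM and fitted in edgeR 4.0.16 (R 4.3.3) by treatment alone. The study used the package TCC and does not state which test was run within it. P-values come from the quasi-likelihood test and were adjusted over the 16675 genes kept (Benjamini-Hochberg), with the SE derived from the F value. The pipeline was tested on simulated counts. Ratios of summed counts carry Clopper-Pearson intervals, which cover counting error only. Sequences were aligned with MAFFT 7.526, and shared sequence was measured on 50-mers of GENCODE transcripts. Levels per kilobase use the length of 1 protein-coding transcript per gene.

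The 7 genes and all lists were chosen with earlier results of these data known. Beside the 7 genes, the text names the 3 genes with the smallest adjusted p below 0.05 and the most abundant tested gene of each list, and the 3 nearest profiles of Prg2 and Ear2. Other genes, Cebpb, Cebpe, Rnh1, Rnase9 and Rnase13 included, were named with their values known. Protein sequences were not analysed here. Alternatives were DESeq2 1.42.0 size factors, library totals, no filter, a filter at 1 CPM in 3 libraries, the DESeq2 Wald test, a replicate block, prior counts of 2 and 0.5, and leaving out each library. The numbers of same-numbered replicates mark no shared animal or day in the labels.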

Additional observations from a re-analysis of the deposited data

How the results depend on the processing

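The addition of the pseudogenes to the Ear sum was chosen after seeing the data. Over all alternatives the log2 fold change ranged from 3.27 to 3.71 for Prg2, from -1.42 to -1.17 for Ear1, from -1.55 to -1.28 for Ear2 and from -1.55 to -1.27 for Ear10, and the extremes of Prg2 came from leaving out a library. Library totals shifted the median of all genes to -0.17, and with them Ear10 was at -1.55, the Ear sum at -1.54, 1698 genes were called higher (against 3003) and 5030 lower (against 3372), 2 RNase A family genes, 5 regulators and 2 basophil markers were called lower, Ctsg and Cebpb were no longer called, Rnh1 was called at -0.26 and Mrc1 at -0.32, and Prss34 was at -0.15 (edgeR adjusted p 0.0255). With no filter, 3 RNase A family genes were called lower, and 8 neutrophil markers were called higher and 2 lower, with 10 and 11 genes of these lists tested. Leaving out 1 library gave 1 to 2 RNase A family genes lower, 0 to 1 mast cell markers lower and Prss34 between -0.027 and 0.056. It gave 4 to 7 neutrophil markers higher and 1 to 2 lower, with 9 to 11 tested. Of all genes, 2482 to 2787 were then called higher and 2883 to 3108 lower. Leaving out 1 library left the log2 ratio of summed counts at 4.51 to 5.41 for Prg3, 0.41 to 1.47 for Epx and -0.66 to 0.25 for Ear6. The cause of the changes other than those with library totals was not tested. Prg3 without PBS replicate 2 had 0 PBS counts and gave no ratio, and the DESeq2 Wald test, the 1 CPM filter and the block were not run for ratios of summed counts.

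With the replicate number as a block, Prg2 was at 3.52 and Ear2 at -1.40, 2842 genes were called higher and 3247 lower, and 2 RNase A family genes lower. Deviations of same-numbered libraries correlated at -0.0087, -0.016 and -0.022. These values gave no sign of pairing but cannot exclude a shared pool of cells or a shared day. Of the 46 tested genes named outside the 7, 39 kept sign and call under every alternative run for them, Prss34 changed sign, and 7 (Ctsg, Rnase12, Cebpb, Mrc1, Ccr3, Rnh1 and Prss34) lost or gained a call. Depth limits Prg3, Epx, Ear6, Cebpe and Rnase2b, which were too rare to be tested.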
